A study of Mus musculus with 24 samples.

Results

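The genes described here are 9 genes of the oligodendrocyte lineage, the transcription factors Olig1, Olig2 and Sox10, the precursor surface proteins Pdgfra and Cspg4 (NG2), and the myelin genes Mbp, Cnp, Mag and Mog. They were taken by gene symbol from the 49315 genes counted in each of 24 libraries of primary astrocytes, and each symbol matched 1 row. The astrocytes came from the brain cortex of wild type C57BL/6J mouse embryos late in gestation and were irradiated 3 days after seeding, in passage 1 and in medium with serum. Cells of all embryos of a pregnant mouse were pooled, and the methods name no step that sorts astrocytes from other cells. X-ray doses of 0 Gy (mock irradiation), 0.1 Gy and 2 Gy, each harvested at 6 h or 24 h, made up 6 groups of 4 libraries (replicates 1 to 4). No other treatment and no transgene was used, and 0 Gy cells of the same time served as control.

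Oligodendrocytes form the myelin sheaths of axons in the central nervous system and arise from precursor cells that carry PDGFRA, the receptor for platelet-derived growth factor (PDGF), and the proteoglycan NG2 on their surface. OLIG2 and OLIG1 are basic helix-loop-helix factors that specify the lineage, and SOX10 acts with them and with MYRF to turn on the myelin genes. OLIG2 is also found in part of the astrocytes and in neural progenitors, NG2 also in pericytes, and the Mbp locus also gives golli transcripts, which are known from immune cells as well. The counts are per gene and do not tell such transcripts apart. CNP is an enzyme of myelin membranes made early in oligodendrocytes, MBP compacts the myelin sheath, MAG sits on its inner face, and MOG on its outer surface and appears late.

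Promoter sequences are printed for a transcription factor and both precursor surface proteins, because Olig2 and Cspg4 differed between the harvest times and Pdgfra between replicate numbers. They hold the bases before the start of the gene on the plus strand (RefSeq, GRCm38.p6), and capitals mark the motifs searched on both strands. These were CANNTG, the core bound by basic helix-loop-helix factors, ACAATG or ACAAAG, bound by SOX factors, and TATAAA, the TATA box. Windows of 6 of the 9 genes were searched. The Olig2 window is chr16:91225300-91225549, the Pdgfra window chr5:75152001-75152250 and the Cspg4 window chr9:56864854-56865032. The Olig2 and Cspg4 windows reach the gene start of the count files, whereas 41 bases lie between the Pdgfra window and that start.
Olig2 promoter: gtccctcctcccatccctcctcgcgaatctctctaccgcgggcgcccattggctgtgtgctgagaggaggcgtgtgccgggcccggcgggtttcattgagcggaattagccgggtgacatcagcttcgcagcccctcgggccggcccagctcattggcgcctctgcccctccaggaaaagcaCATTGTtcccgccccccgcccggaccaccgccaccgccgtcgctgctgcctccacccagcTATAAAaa
Pdgfra promoter: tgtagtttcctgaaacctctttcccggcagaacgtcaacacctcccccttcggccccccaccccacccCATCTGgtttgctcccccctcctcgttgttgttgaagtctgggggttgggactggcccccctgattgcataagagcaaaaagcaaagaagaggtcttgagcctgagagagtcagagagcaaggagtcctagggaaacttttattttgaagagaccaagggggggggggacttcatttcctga
Cspg4 promoter: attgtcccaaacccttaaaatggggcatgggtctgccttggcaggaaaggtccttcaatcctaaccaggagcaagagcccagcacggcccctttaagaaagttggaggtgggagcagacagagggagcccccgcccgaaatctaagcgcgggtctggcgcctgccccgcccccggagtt
The Olig2 window held 1 SOX motif and 1 TATAAA and 0 CANNTG, the Pdgfra window held 1 CANNTG, and the Cspg4 window held 0 of the 3. Of 32851 RefSeq promoter windows of 250 bases, 66.2% held CANNTG, 25.2% a SOX motif and 12.4% TATAAA, and of windows cut to 179 bases, the length of the Cspg4 window, 55.3%, 19.1% and 8.34% did. A match is a description of letters and not a binding site.

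In the files Olig2 lies on chromosome 16 from base 91225550 to 91228677 and Olig1, a gene of 1 exon, from 91269772 to 91271933, with 41094 bases between them. Sox10 is on chromosome 15 (79154913 to 79164490), Pdgfra on chromosome 5 (75152292 to 75198215), Cspg4 on chromosome 9 (56865033 to 56899870) and Cnp on chromosome 11 (100574904 to 100591729). Mag is on chromosome 7 (30899176 to 30914873), Mog on chromosome 17 (37010743 to 37023398) and Mbp on chromosome 18, all in GRCm38. The exons of Cnp share 154 bases with Dnajc7 on the other strand, a gene at 94.6 to 163 CPM (counts scaled to the size of the library), and those of Pdgfra share 456 bases with Gm42802, 166 with Gm42803 and 30 with Mir7025, which together held 6 counts over all libraries. Whether the counting used strand is not given in the sources used here, so the level of Cnp is uncertain by what these 154 of its 3639 exon bases add.

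Total counts per library ranged from 14742855 to 38194800. The astrocyte label was checked on 10 markers, which were all detected in every library, Gfap at 343 to 797 CPM and Aqp4 at 333 to 914 CPM, and S100b lowest at 1.15 to 5.67 CPM. Markers of other cells were present too. The summed CPM of 6 neural progenitor markers was 1522 to 2940, with Nes at 1525 CPM on average, and that of 7 neuron markers 400 to 726. The summed CPM of 8 microglia markers was 147 to 168 in the 6 libraries of replicate 2 and 965 to 1394 in the other 18. The summed CPM over the libraries was 3519 to 7828 for 8 fibroblast and pericyte markers, most of it Acta2, and 4.85 to 20.96 for 4 endothelial markers, most of it Kdr, and no marker of either list was at 0 in all libraries.

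Levels are given as CPM after TMM scaling, and, to compare genes, as CPM per kb of exon. The lineage genes fell into a high set of Olig1, Olig2 and Cnp and a low set of the others. Per length Olig1 was highest with 146 ± 55.5 CPM per kb (SD, n = 24 libraries), followed by Olig2 with 40.6 ± 15.6 and Cnp with 32.5 ± 7.97. Olig1 was above Olig2 in 24 of 24 libraries, 2.76 to 4.58 times as high per length. Olig2 was above Cnp in 11 of 24 libraries, so their order was not settled beyond the spread.
After a gap without overlap, with Cnp above Cspg4 in all 24 libraries, came Cspg4 with 4.53 ± 3.12, Mbp with 2.15 ± 1.03 and Pdgfra with 0.607 ± 0.37 CPM per kb. Sox10 (0.32 ± 0.303), Mag (0.195 ± 0.0965) and Mog (0.05 ± 0.0648) were lowest. Cspg4 was above Mbp in 15, Mbp above Pdgfra in 18, Pdgfra above Sox10 in 23, Sox10 above Mag in 9 and Mag above Mog in 20 of 24 libraries.
Among the 14331 genes with a mean of at least 1 CPM, Olig1 had rank 252 per length, Olig2 rank 1210, Cnp rank 1553, Cspg4 rank 8281, Mbp rank 10708 and Pdgfra rank 13279, and Sox10, Mag and Mog had a mean under 1 CPM. The astrocyte gene Gfap was 0.459 to 1.40 times as high as Olig1 per length. Olig2 was 44.9 to 622 times as high per length as Sox10, its partner in the oligodendrocyte lineage, and Cnp 9.65 to 53.6 times as high as Mbp.

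**Figure D1:**
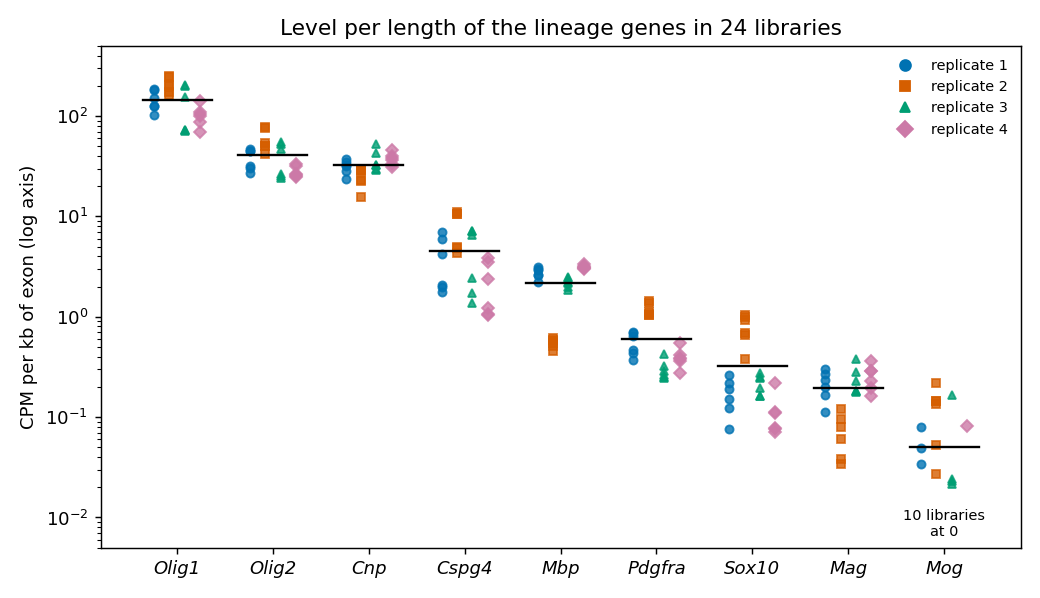
CPM per kb of exon on a log axis for each lineage gene in each of the 24 libraries, with colour and shape giving the replicate number and a black line at the mean over all libraries. Olig1, Olig2 and Cnp lay above the other 6 genes, and Mog was at 0 in 10 libraries, which are not drawn as points.

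Mog, the myelin gene made last, had 54 counts over all libraries, at most 9 in any of them, and was at 0 in 10. A count of 0 allows up to 3 counts, or 0.0781 to 0.204 CPM in these 10 libraries, so absence cannot be told from a low level. It did not pass the filter on low counts in any comparison and was not tested. Sox10 had 3 to 72 counts and Mag 4 to 44 counts per library, and the other 6 genes had at least 53.

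The clearest division among the libraries ran by replicate number, the label that the 4 libraries of a group carry. Replicate 2 stood apart from replicates 1, 3 and 4 at both times and all doses, with more Sox10 and Pdgfra, the early lineage genes, and less Mbp. Sox10 was 1.02 to 2.81 CPM in the 6 libraries of replicate 2 and 0.194 to 0.746 CPM in the other 18. Pdgfra was 10.4 to 14.3 CPM in replicate 2 and 2.43 to 7.05 CPM in the others. Mbp was 3.79 to 5.16 CPM in replicate 2 and 15.4 to 28.4 CPM in the others. These 3 genes did not overlap between replicate 2 and the rest. Sox10 has a mean under 1 CPM, and of the 6 members with at least 1 CPM 2 were apart in this way, Pdgfra and Mbp, beside 11.8% of all 14331 such genes, 586 above and 1109 below, against 0.14% to 0.419% for replicates 1, 3 and 4.

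The remaining genes overlapped, and all but the myelin gene Mog leaned the same way. Averaged over the 6 libraries of a number, Olig1 was 315, 446, 279 and 221 CPM in replicates 1 to 4 and Olig2 was 91.4, 143, 93.7 and 67.6 CPM, highest in replicate 2 in each case. Cspg4 was 45.7, 92.0, 52.3 and 26.0 CPM, and Mog 0.0461, 0.205, 0.0666 and 0.0231 CPM. Cnp was lowest in replicate 2 (114, 89.5, 133 and 136 CPM), as was Mag (0.871, 0.291, 0.974 and 1.04 CPM). Early lineage genes were thus higher and 3 of the 4 myelin genes lower in replicate 2.

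A test of replicate number with dose as a covariate (edgeR's quasi-likelihood F test, Benjamini-Hochberg adjustment) called all 8 tested genes at 6 h, with an adjusted p from 1.54e-09 (Mbp) to 0.00747 (Cnp), and all 8 at 24 h, from 4.07e-08 (Mbp) to 0.00707 (Mag). Most of the transcriptome was called too, 53.0% of 16943 genes at 6 h and 69.1% of 16861 at 24 h. Without replicate 2 the call was kept at 6 h by 2 of the 8 genes, Olig1 and Cspg4, beside 11.0% of 16346 genes, and at 24 h by 6, Olig1, Olig2, Pdgfra, Cspg4, Mbp and Cnp, beside 48.2% of 16551 genes. The labels tie no litter, date or culture to a number, so whether the numbers mark different isolations cannot be told from them.

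**Figure D2:**
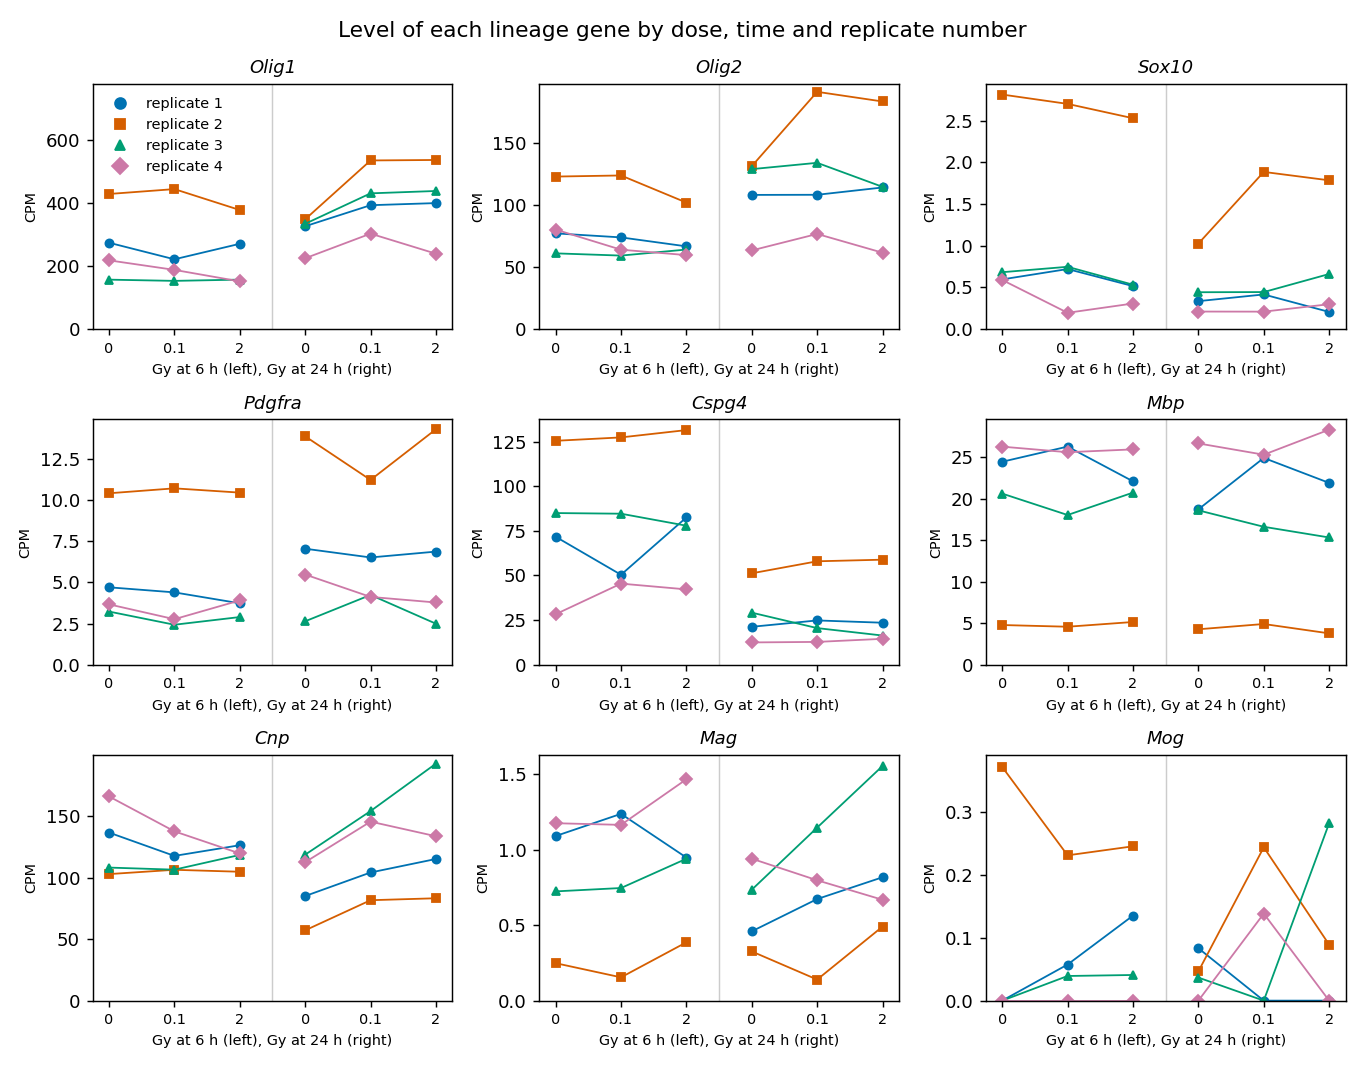
CPM of each lineage gene, in panels with separate linear axes, by dose at 6 h (left of the grey line) and 24 h (right), with 1 line per replicate number. Replicate 2 is the highest line for Sox10, Pdgfra and Cspg4 and the lowest for Mbp throughout, and Cspg4 lies lower at 24 h in all 4 replicates.

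Cell type markers moved with the number as well. All 8 microglia markers were lower in all libraries of replicate 2 than in any other, among them Csf1r at 76.5 CPM on average against 493 to 626 CPM in replicates 1, 3 and 4. Of the 13 further precursor and commitment genes, Lhfpl3 (14.2 CPM on average in replicate 2, 1.62 to 4.67 in the others) and Tnr, a tenascin made by precursors (139 against 21.7 to 41.9 CPM), lay above in every library of replicate 2. Of 13 further myelin and oligodendrocyte genes 3 lay above, among them Ugt8a, which makes galactocerebroside (1.18 against 0.119 to 0.374 CPM), and 1 below, the transcription factor Nkx6-2 (3.97 against 16.2 to 53.9). Of the first list 11 genes overlapped, and of the second 9. Bmp4 and Lingo1, of 7 inhibitors of oligodendrocyte differentiation, lay above in replicate 2, as did Snap25 and Dcx of 7 neuron markers, Rgs5 of 8 fibroblast and pericyte markers, Kdr of 4 endothelial markers, Egfr of 6 neural progenitor markers and S100b of 10 astrocyte markers, whereas Aldh1l1 lay below. The 5 PDGF genes overlapped. In this bulk RNA fewer cells of a type and less RNA per cell cannot be told apart, and the part of microglia or other cells in the levels of the lineage genes was not tested.

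**Figure D3:**
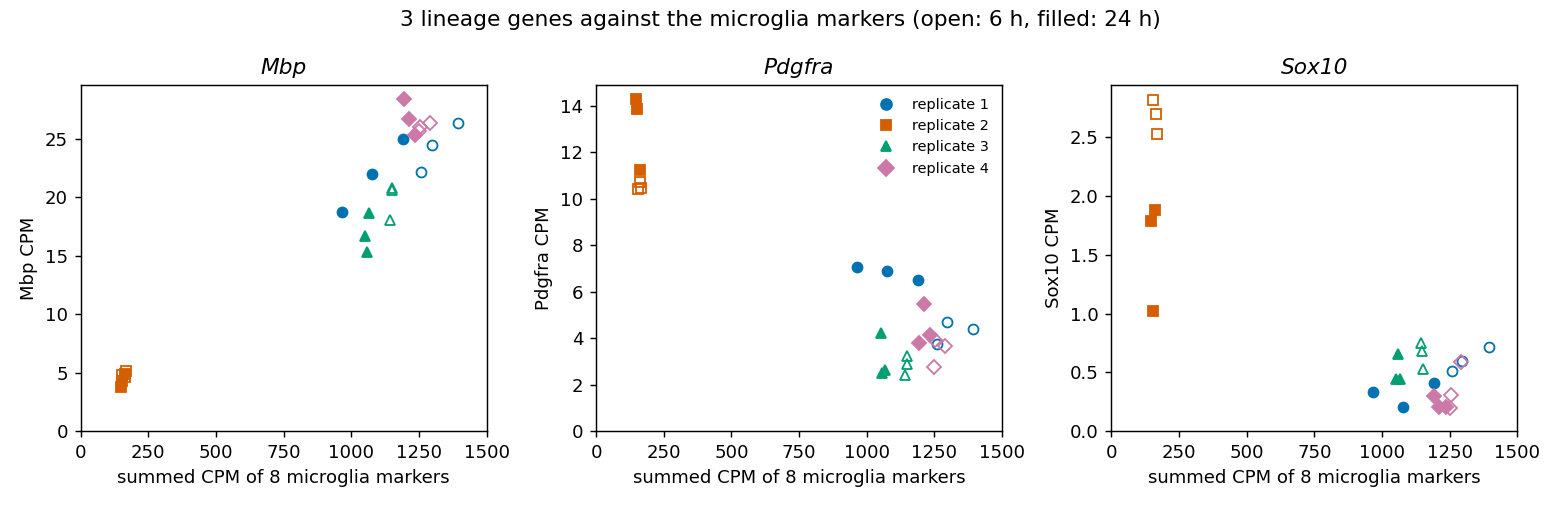
CPM of Mbp, Pdgfra and Sox10 (vertical axes, linear) against the summed CPM of 8 microglia markers in the 24 libraries, coloured by replicate number, with open symbols for 6 h and filled symbols for 24 h. The 6 libraries of replicate 2 lie at 147 to 168 CPM of the markers, with the lowest Mbp and the highest Pdgfra and Sox10.

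Genes whose pattern over the 24 libraries was most like that of a member were found by the correlation of log2 CPM after the mean of each dose and time group was taken off, over the genes with a mean of at least 1 CPM. Libraries of the same number deviated together, so these values are descriptions. For Mbp they were Csf1r, the microglia receptor for colony stimulating factor (Pearson r = 0.99, Spearman rho = 0.96), Fam129a (r = 0.99) and Inpp5d (r = 0.99). With the 18 libraries left without replicate 2, r with Mbp was 0.90, 0.85 and 0.89.
For Pdgfra they were Tmtc1 (r = 0.98), Frrs1l (r = 0.97) and Lhfpl3 (r = 0.97), with r = 0.94, 0.90 and 0.90 in those 18 libraries. For Cspg4 they were Lima1, Ncam1 and Slit3 (r = 0.97 each, and 0.96, 0.93 and 0.95 in 18). For Cnp they were Tspan15 (r = 0.98), Oplah (r = 0.97) and Cdc42ep4 (r = 0.97), with 0.98, 0.94 and 0.93 in 18. Olig1 was near to Wnt5b (r = 0.96) and Emc8 (r = 0.95), and Olig2 to Rbm15b (r = 0.96), H2-Eb1 (r = 0.94) and Gmds (r = 0.93). None of the 3 genes most like a member was another member. Between members, Olig1 and Olig2 had r = 0.89, and 0.80 in 18 libraries, whereas Olig2 and Pdgfra had r = 0.69, and -0.02 in 18. Pdgfra and Mbp had r = -0.82, which became 0.46 in 18.

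The harvest times were compared within each dose. Cspg4, the gene of the NG2 proteoglycan, was lower at 24 h than at 6 h in 8 of 8 pairs of libraries with equal number at 0.1 Gy and 2 Gy, 2.03 to 4.75 times, and also in each of 4 replicate numbers at 0 Gy, where equal numbers were not taken as pairs between the times. In mock-irradiated cells it was 71.7, 125, 84.95 and 28.3 CPM in replicates 1 to 4 at 6 h and 21.3, 51.2, 29.2 and 12.5 CPM at 24 h. At 0.1 Gy it was 50.4, 127, 84.6 and 45.5 CPM at 6 h and 24.8, 57.95, 20.6 and 12.8 CPM at 24 h, and at 2 Gy 82.5, 131, 77.9 and 42.2 CPM at 6 h and 23.6, 58.9, 16.4 and 14.5 CPM at 24 h. The groups overlapped at each dose, with replicate 2 at 24 h above the lowest replicates at 6 h, and in mock-irradiated cells replicate 3 at 24 h also above replicate 4 at 6 h.
The log2 fold change of Cspg4 was -1.45 ± 0.50 (SE) at 0 Gy, -1.42 ± 0.50 at 0.1 Gy and -1.56 ± 0.49 at 2 Gy. In edgeR's fit of 4 against 4 libraries without the replicate number it was not called (adjusted p = 0.111, 0.105 and 0.0932), nor was any other member, while 6.70%, 9.90% and 6.95% of all tested genes were. An unadjusted p under 0.05 was reached by 1 member, Cspg4, at each dose, and DESeq2 called Cspg4 at each dose (adjusted p = 0.0272, 0.0227 and 0.0164). The share of all genes that DESeq2 called is not given here, so its calls cannot be read as particular to Cspg4. With all libraries of replicate 2 left out, a fit chosen after seeing the data, edgeR called it at each dose (log2 fold changes -1.55, -1.65 and -1.90, adjusted p = 0.0452, 0.00751 and 0.0135), when 7.44%, 14.4% and 7.33% of genes were called.

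Same-numbered libraries of 24 h and 6 h deviated together from their group means at 0.1 Gy and 2 Gy, so the replicate number was entered there as a block, which compares libraries of equal number. Replicate 3 at 0.1 Gy was no closer to its own number (r = 0.389) than to another (0.409). The blocked calls rest on this pairing over time, which the labels do not state. With the block 3 members were called at each of these doses, Cspg4 as lower and Olig1 and Olig2 as higher at 24 h, beside 25.7% of all tested genes at 0.1 Gy and 19.2% at 2 Gy. Cspg4 had log2 fold changes of -1.52 ± 0.18 and -1.69 ± 0.19 (adjusted p = 0.000341 and 0.00115). It remained called at both doses without each replicate number in turn.

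Olig1 and Olig2, neighbours on chromosome 16, rose together. Olig1 was 222, 445, 153 and 188 CPM at 6 h after 0.1 Gy and 394, 536, 431 and 303 CPM at 24 h. After 2 Gy it was 271, 378, 157 and 151 CPM at 6 h and 400.2, 537, 439 and 239 CPM at 24 h. All 8 pairs were higher at 24 h, by the most in replicate 3. Olig2 was 73.9, 124, 59.2 and 64.0 CPM at 6 h and 108, 191, 134 and 76.7 CPM at 24 h after 0.1 Gy, and 66.7, 102, 64.1 and 59.6 CPM against 114, 184, 115 and 61.6 CPM after 2 Gy.
With the block, Olig1 had log2 fold changes of 0.80 ± 0.17 (adjusted p = 0.00652) at 0.1 Gy and 0.79 ± 0.18 (0.0157) at 2 Gy, and Olig2 0.63 ± 0.14 (0.00907) and 0.62 ± 0.16 (0.0297). At 0.1 Gy both calls were kept without each number in turn. At 2 Gy Olig1 was not called without replicate 4 (adjusted p = 0.0706), and Olig2 not without replicate 1 or replicate 2, with an adjusted p of at most 0.124.
In mock-irradiated cells Olig1 was 274, 429, 157 and 218 CPM at 6 h and 327, 349, 334 and 225 CPM at 24 h, lower at 24 h in replicate 2, and Olig2 was 77.2, 123, 61.0 and 80.2 CPM at 6 h and 108, 131, 129 and 63.4 CPM at 24 h, lower in replicate 4. Their log2 fold changes there, from the fit without the block, were 0.18 ± 0.29 and 0.32 ± 0.27 and were not called (adjusted p = 0.753 and 0.503). They are thus not like for like with the blocked values at 0.1 Gy and 2 Gy. Genes with at least 60% GC, as Olig1, had a median of -0.32 in this comparison, and after correcting GC content and length without the block the changes were 0.60 ± 0.32 and 0.67 ± 0.30 (adjusted p = 0.275 and 0.196). The change over time at 2 Gy less that at 0 Gy was not called for either in the fit without the block (0.57 ± 0.47 and 0.37 ± 0.43, adjusted p = 0.825 and 0.866), and a call of Olig1 with the block was lost without replicate 1, 2 or 4 and after correcting GC content and length (0.01, adjusted p = 0.956).

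**Figure D4:**
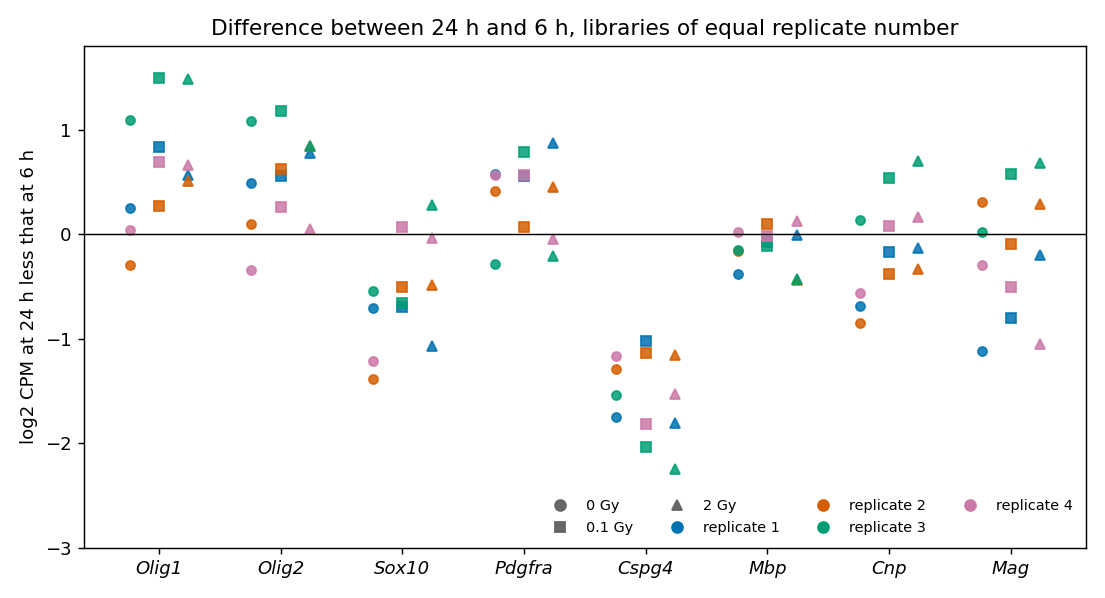
Difference of log2 CPM between 24 h and 6 h for libraries of equal replicate number, with shape giving the dose and colour the replicate number, for the 8 members that were tested. At 0.1 Gy and 2 Gy Cspg4 is below 0 in 8 of 8 pairs and Olig1 and Olig2 above 0 in 8 of 8, while at 0 Gy equal numbers are drawn but were not taken as pairs.

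The remaining members showed no call between the times at 0.1 Gy and 2 Gy with or without the block. Sox10 was lower at 24 h in 6 of 8 pairs at these doses, with log2 differences from -1.07 to 0.28, and Pdgfra higher in 6 of 8, from -0.21 to 0.87. In mock-irradiated cells Sox10 was 0.595, 2.81, 0.681 and 0.588 CPM at 6 h and 0.334, 1.02, 0.441 and 0.209 CPM at 24 h. That is a log2 fold change of -1.23 ± 0.67 (adjusted p = 0.29) on 12 to 68 counts at 6 h and 4 to 22 at 24 h. Among the myelin genes at 0.1 Gy and 2 Gy, Mbp was lower in 6 of 8 pairs with differences from -0.44 to 0.13, Cnp was lower in 4 and higher in 4, and Mag was lower in 5 and higher in 3.

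Genes of the same pathways were read from lists. Of the 13 further precursor and commitment genes 10 were tested between times. Without the block 2 were called at 0 Gy, where Sox6, which holds precursors undifferentiated, was higher at 24 h (0.86 ± 0.20, adjusted p = 0.0348) and C1ql1, secreted by precursors, lower (-0.85 ± 0.20, 0.0409), and 0 at 0.1 Gy and 2 Gy. The median log2 fold change of the list was 0.15, -0.06 and -0.12 at 0, 0.1 and 2 Gy, beside -0.02, -0.01 and -0.00 over all genes. With the block Sox8, the relative of SOX10, was lower at 24 h at 0.1 Gy (-0.78 ± 0.14, adjusted p = 0.00367) and 2 Gy (-0.76 ± 0.13, 0.00623). Sox6 was higher at 0.1 Gy (0.52 ± 0.16, 0.0356). Per length the highest of the list were Sox8 (41.1 CPM per kb), C1ql1 (31.3) and Ptprz1 (25.3), a receptor phosphatase.
Of the 13 further myelin and oligodendrocyte genes 6 to 7 were tested. Tspan2, a tetraspanin of myelin, was lower at 24 h by -1.67 ± 0.38 at 0.1 Gy (adjusted p = 0.0291) and -1.73 ± 0.30 at 2 Gy (0.0144) without the block, the single gene of the list called there. With the block Nkx6-2 was higher at both doses (0.77 ± 0.20, adjusted p = 0.0179, and 0.80 ± 0.22, 0.0346). The median of the list was -0.06, -0.08 and 0.06 at 0, 0.1 and 2 Gy. Its highest genes per length were Nkx6-2 (13.7 CPM per kb), Tspan2 (7.32) and Mal (3.59), and Opalin, Mobp and Ermn, genes of mature oligodendrocytes, had 5, 14 and 36 counts in all.

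The ligands of the PDGF receptors were far more abundant than Pdgfra. Pdgfb was at 46.3 CPM per kb on average, Pdgfa, the main ligand of PDGFRA, at 32.8 and Pdgfd at 12.5, and Pdgfrb, the receptor of pericytes, at 11.6, against 0.607 for Pdgfra. All 5 genes of this list were tested, and without the block 1 was called, Pdgfb, which was lower at 24 h in mock-irradiated cells (-0.998 ± 0.255, adjusted p = 0.0486). With the block Pdgfb was lower at 0.1 Gy (-0.72 ± 0.11, 0.00138) and 2 Gy (-0.56 ± 0.15, 0.0351), and Pdgfc at 0.1 Gy (-0.62 ± 0.16, 0.017). The list medians without the block were -0.30, -0.08 and -0.14.
Of the 7 genes of the list of inhibitors of oligodendrocyte differentiation 6 were tested, and those called without the block were all higher at 24 h. Id2, an inhibitor of helix-loop-helix factors, was called at 0 Gy (0.62 ± 0.15, adjusted p = 0.0439) and 0.1 Gy (0.65 ± 0.15, 0.0324), and its relative Id4 at 0.1 Gy (0.65 ± 0.13, 0.0194) and 2 Gy (0.72 ± 0.18, 0.0489). The list medians were 0.42, 0.45 and 0.20. With the block Bmp4 was higher (0.83 ± 0.16, 0.00515) and Hes1 lower (-0.38 ± 0.12, 0.0413) at 0.1 Gy. Per length Id2 (124 CPM per kb), Id4 (59.3) and Hes1 (16.7) were highest.
Of the marker lists, astrocyte markers had medians of -0.17, -0.04 and 0.04 between the times, with Sox9 called as higher at 0.1 Gy and 2 Gy (0.81 each, adjusted p = 0.0311 and 0.0461) and 9 markers not called. The summed astrocyte markers spanned 2283 to 2848 CPM at 6 h and 2035 to 2924 CPM at 24 h. Microglia markers had medians of -0.26, -0.21 and -0.24 and no call without the block. Of the neuron markers Syt1 was called as higher at 0.1 Gy (0.88 ± 0.22, 0.0387), and of the endothelial and neural progenitor markers none was called without the block. At 2 Gy Syt1 was higher by 1.09 ± 0.28 without the block (adjusted p = 0.0523) and was called with it (1.09 ± 0.27, 0.0241).
Markers of fibroblasts and pericytes, cells that can also make NG2, had medians of -0.22, -0.13 and -0.21 and no call among 6 tested without the block. With the block 1 of the 6, Dcn, the collagen-binding decorin, was lower at 24 h at 0.1 Gy (-0.79 ± 0.26, adjusted p = 0.0478) and 2 Gy (-1.47 ± 0.31, 0.0129), and so was Cdh5, the endothelial cadherin (-0.89 ± 0.29, 0.0455, and -1.22 ± 0.30, 0.0216). Also lower with the block were Egfr (-0.57 and -0.63) and the astrocyte connexin gene Gja1 (-0.52 and -0.51) at both doses, and Ptprc (-0.55) and Fabp7 (-0.48) at 0.1 Gy, where Sox2 was higher (0.35). The part of these cell types in the lower Cspg4 at 24 h was not tested.

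The doses were compared with mock-irradiated cells of the same time to ask whether X-rays changed the lineage genes. Without the block no member was called in any of the 4 comparisons, and 0.00% of the 16020, 16183, 15994 and 15892 genes tested (0.1 Gy at 6 h and 24 h, 2 Gy at 6 h and 24 h) were called. An unadjusted p under 0.05 was reached by 0 of the members tested, which were 8, 8, 8 and 7 since Sox10 did not pass the filter in the last, and by 24, 241, 215 and 570 of all genes. DESeq2 called 0 members as well. The largest log2 differences without the block were -0.13 and -0.26 at 6 h, and 0.56 and 0.52 at 24 h, for Cnp, Sox10, Sox10 and Mag, with standard errors of 0.16, 0.77, 0.73 and 0.46. The members' median was -0.10 and 0.20 at 0.1 Gy and -0.10 and 0.14 at 2 Gy (6 h and 24 h), beside -0.00, -0.01, -0.00 and 0.01 over all genes.

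Libraries of equal number deviated together within a time point, and the blocked fit called 0 members and 0.00% of all genes at 6 h at both doses. At 24 h it called Cnp and Olig1 as higher after 0.1 Gy, beside 6.84% of 16183 genes, and Cnp alone after 2 Gy, beside 13.2% of 15892 genes. Cnp was 85.1, 57.2, 119 and 113 CPM in replicates 1 to 4 at 0 Gy, 104, 81.7, 154 and 146 CPM at 0.1 Gy and 115, 83.3, 193 and 134 CPM at 2 Gy. It was higher than at 0 Gy in 4 of 4 pairs at each dose, although the groups overlapped. Olig1 at 24 h, 327, 349, 334 and 225 CPM at 0 Gy, was also higher in 4 of 4 pairs at each dose.
With the block the log2 fold change of Cnp was 0.38 ± 0.09 (adjusted p = 0.0313) and 0.49 ± 0.10 (0.0204), and that of Olig1 0.41 ± 0.09 (0.0285) and 0.35 ± 0.10 (0.0543). The calls depended on which replicates entered. After 0.1 Gy both were lost without replicate 2 or replicate 4, and after 2 Gy Cnp was lost without replicate 1, 2 or 4, while without replicate 3 Cnp and Olig1 were both called. Without these replicates the adjusted p after 0.1 Gy was 0.16 and 0.188 for Olig1 and 0.171 and 0.192 for Cnp, and after 2 Gy it was 0.0592 to 0.139 for Cnp.
The calls also ended once GC content and gene length were corrected for in the blocked fit, where Cnp stood at 0.24 ± 0.07 (adjusted p = 0.0832) and 0.33 ± 0.08 (0.0794) and Olig1 at 0.09 ± 0.07 (0.554) and -0.02 ± 0.07 (0.882). In that fit 1.48% and 2.84% of all genes were called. Across all genes the log2 fold change at 24 h went with GC content, with r = 0.61 over 16145 genes at 0.1 Gy and r = 0.58 over 15855 genes at 2 Gy, genes not being independent replicates. Genes with at least 60% GC had a median of 0.30 and 0.36. The exons of Olig1 hold 61.1% GC, those of Sox10 62.7%, of Olig2 58.5%, of Cspg4 58.2% and of Cnp 54.7%, against a median of 50.0% over 14308 genes. What the GC content did to the counts was not tested.

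**Figure D5:**
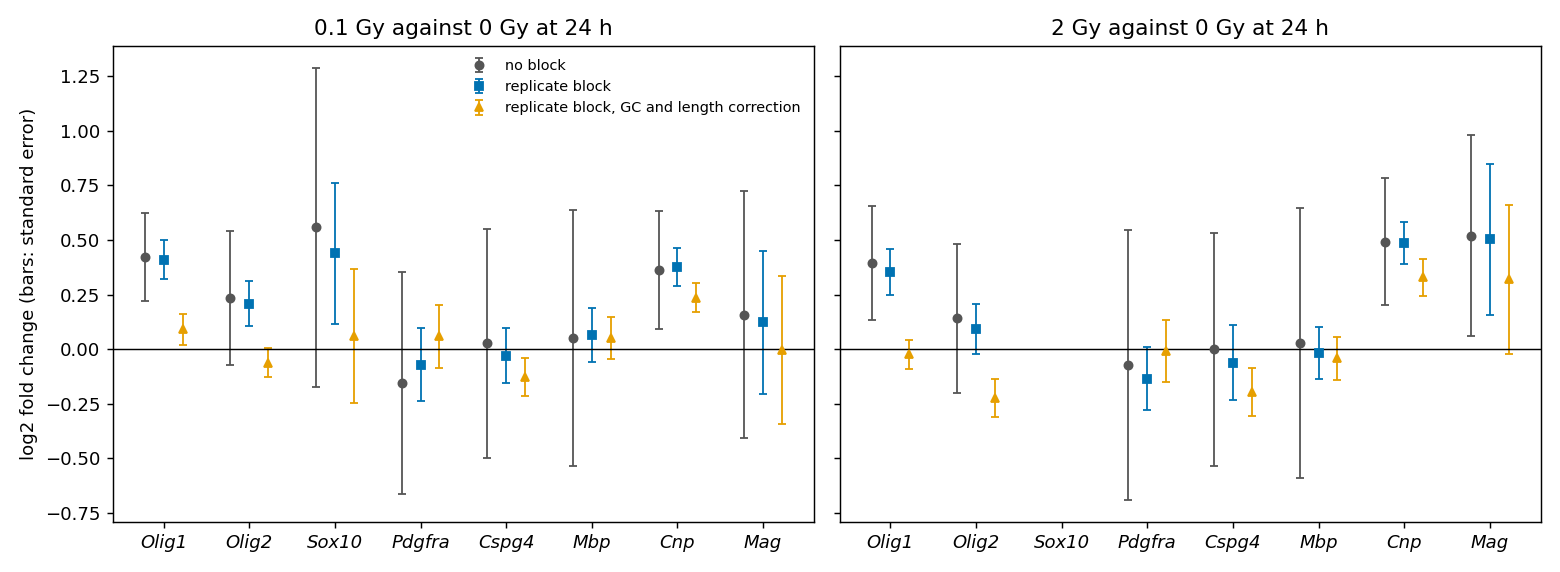
Log2 fold change against 0 Gy at 24 h with its standard error for 0.1 Gy (left) and 2 Gy (right), from the fit without the block (grey circles), with the replicate block (blue squares) and with the block plus that correction of GC content and length (orange triangles). The values of Olig1 move from 0.41 and 0.35 with the block to 0.09 and -0.02 with the correction, and Sox10 was not tested at 2 Gy.

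Cspg4, which differed by time, did not differ detectably by dose, with log2 fold changes without the block of -0.02 ± 0.46 and 0.11 ± 0.44 at 6 h and 0.03 ± 0.52 and -0.00 ± 0.54 at 24 h (0.1 Gy and 2 Gy). Pdgfra was 7.05, 13.9, 2.64 and 5.48 CPM at 0 Gy, 6.52, 11.2, 4.24 and 4.12 CPM at 0.1 Gy and 6.88, 14.3, 2.496 and 3.79 CPM at 2 Gy at 24 h. Its log2 fold changes were -0.16 ± 0.51 and -0.07 ± 0.62. Mbp differed by 0.05 ± 0.59 and 0.03 ± 0.62 at 24 h, and in pairs of equal number by -0.28 to 0.41 over both times.

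Between 2 Gy and 0.1 Gy at 24 h no member was called with or without the block, and 0.00% of 16002 genes were called in each fit. The largest member difference without the block was 0.35 ± 0.57 for Mag. The response to 2 Gy at 24 h less that at 6 h, tested as an interaction, called no member and 0.00% of 16866 genes without the block. With the block it called Cnp (0.60 ± 0.15, adjusted p = 0.0408) and Olig1 (0.54 ± 0.15, 0.0496) and 6.78% of genes. Both calls were lost without replicate 1, 2 or 4, and after correcting GC content and length (0.38, adjusted p = 0.0965, and 0.01, 0.956), where 1.63% of genes were called.
Among list genes at 24 h with the block, Tspan2 was lower after both doses (-0.40 ± 0.10, adjusted p = 0.0386, and -0.61 ± 0.11, 0.0169). Of the precursor and commitment genes Tnr was lower (-0.49 ± 0.10, 0.0262) and C1ql1 higher (0.42 ± 0.10, 0.032) after 0.1 Gy, and Ptprz1 lower (-0.40 ± 0.09, 0.0269) and Bcan, a brain proteoglycan, higher (0.42 ± 0.10, 0.0337) after 2 Gy. Of the markers, Map2 was lower (-0.42) and Trem2 higher (0.45) after 0.1 Gy, and after 2 Gy Gfap (0.36), Aldh1l1 (0.34) and Trem2 (0.50) were higher and P2ry12 (-0.52) lower. The interaction called Tspan2 (-0.71), Ptprz1 (-0.68) and Trem2 (0.75) with the block. The list genes named here as higher hold 53.4% to 65.8% GC and those named as lower 39.4% to 49.7%. Across all genes those under 45% GC had a median of -0.26 after 0.1 Gy and -0.25 after 2 Gy at 24 h. Whether these list calls remain with the correction of GC content and length, or without single replicates, was not tested. In the lists of PDGF genes and of inhibitors 0 genes were called by dose in either fit.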

How the data were processed

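RNA of 24 samples of primary murine astrocytes, isolated on 1 day, was sequenced by a company in a single run with poly(A) selection. The authors deposited raw counts per gene with exon coordinates and exon length, 1 table per library, not normalized and not pooled. The aligner, the counting tool and the use of strand are not given in the sources used here, and the labels name mm10. Of 49315 identifiers 49056 were found in GENCODE M21 (GRCm38), 44858 of them with the same start and end, and 48970 had a symbol and a GC content.

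Groups and replicate numbers came from the sample labels. The members and gene lists were chosen with earlier results of these data known. Each comparison was fitted in edgeR 4.0.16 (R 4.3.3) on the libraries it concerns. Library sizes were scaled by TMM, weakly counted genes were removed with filterByExpr, and p-values of the quasi-likelihood test were adjusted over all genes tested after Benjamini and Hochberg. The threshold for a call was an adjusted p of 0.05. CPM of single libraries used TMM sizes of all 24 libraries, and log2 CPM a prior count of 2. Total counts of 14742855 to 38194800 set the precision, and limits from 0 counts cover counting error only. Over 36 pairs of same-group libraries, chi-square divided by its degrees of freedom was at least 25.9 where sampling noise alone gives about 1. Libraries of a group thus differed beyond counting error, and each was entered as 1 replicate. Such pairs always differ in replicate number, so this does not tell whether libraries of equal number are independent. P-values measure the spread between these libraries.

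Libraries of equal number deviated together from their group means, with correlations across genes of 0.539 to 0.927 within a time point, of 0.386 to 0.847 between times at 0.1 Gy and 0.255 to 0.827 at 2 Gy. At 0 Gy it was 0.0645 for replicate 3, against 0.559 with another number, and the numbers were not taken as pairs between times there. Replicate 3 at 0.1 Gy had 0.389 with its own number and 0.409 with another. The labels call the libraries of a group biological repeats, and the paper's discussion says that every experiment used a fresh isolation, without tying a number to one. GC content and length were corrected with splines of 5 degrees of freedom. The alternatives were DESeq2 1.42.0 (Wald test), DESeq2's size factors, library size alone, no filter, at least 10 counts in every library, all 24 libraries in one fit, the block, the correction with and without the block, and each library or number left out. The fit without all libraries of number 2 was added after seeing the data. The fits were also run on simulated counts, and the outcome is not given here.

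The text names all members, list genes called in a comparison, the 3 list genes highest per length, list genes that stood apart in replicate 2, the genes whose exons overlap a member, and for each member with a mean of at least 1 CPM the 3 genes most like it. Opalin, Mobp, Ermn, Acta2, Aqp4, S100b and Gfap were named after their values were seen. A few genes that this rule names are not reported here.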

Additional observations from a re-analysis of the deposited data

Results flagged for a closer look

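In a group of 4 libraries a value was taken as far from the others where its gap to the nearest divided by the range of the group exceeded Dixon's 95% critical value, which chance passes in about 1 in 20 groups. Of 54 groups (9 genes in 6 groups) 6 had such a value, and in all 6 it was the highest and belonged to replicate 2. They were Olig2 at 102 CPM at 6 h after 2 Gy, Sox10 at 2.81 CPM in mock-irradiated cells at 6 h, at 2.53 CPM at 6 h after 2 Gy and at 1.88 CPM at 24 h after 0.1 Gy, Pdgfra at 10.46 CPM at 6 h after 2 Gy, and Mog at 0.372 CPM in mock-irradiated cells at 6 h, where the other 3 libraries had 0 counts, so that any count in the fourth would have passed. The genes and groups share libraries, so these are not 6 independent values.

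The response to 2 Gy differed between 24 h and 6 h for Cnp (0.60 on the log2 scale) and Olig1 (0.54) in edgeR's fit with the replicate block, with adjusted p = 0.0408 and 0.0496, and not in the fit without it (adjusted p = 0.819 and 0.825). Neither was called after correcting GC content and length.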

How the results depend on the processing

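Over the members and alternatives of the comparisons between doses, between times and of dose with time, without those between replicate numbers, 1329 values kept sign and side of the threshold, 72 kept the sign and passed the threshold, and 205 changed sign without a call in either fit. The number of members called, 0 in the fits without the block between doses and between times, was 0 with DESeq2's size factors, library size alone, no filter, at least 10 counts in every library and all 24 libraries in one fit. Between times DESeq2's Wald test called 1 member at each dose, and so did the correction for GC content and length at 2 Gy. The shares of all genes called in these fits are not given here. Leaving out all libraries of number 2 gave 1, 3 and 1 members at 0, 0.1 and 2 Gy. Leaving out single libraries gave 0 to 1 at 0.1 Gy (Olig1 without 6 h replicate 2, Cspg4 without 24 h replicate 2) and 0 to 1 at 2 Gy (Cspg4 without 24 h replicate 2). For replicate number at 6 h, leaving out a number gave 2 to 8 members.

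The replicate block called 2 and 1 members at 24 h for 0.1 Gy and 2 Gy, 2 for the interaction, and 2, 3 and 3 between times at 0, 0.1 and 2 Gy. At 0 Gy between times, where the libraries share only a number, these were Cspg4 (log2 fold change -1.46, adjusted p = 0.00066) and Sox10 (-1.12, 0.0485), beside 15.3% of all genes. With the block and the correction for GC content and length 3, 4 and 3 were called between times, beside 27.5%, 36.6% and 29.4% of all genes. At 0 Gy these were Cspg4, Olig1 (0.64, adjusted p = 0.00147) and Olig2 (0.64, 0.00436), and Sox10 was lost (0.128). At 0.1 Gy the fourth was Pdgfra (0.49, adjusted p = 0.0423), and for the doses and the interaction 0 were called. Without each number in turn the blocked counts were 0 to 2 at 24 h for 0.1 Gy, 0 to 2 for 2 Gy, 0 to 3 for the interaction and 1 to 4 between times at 0 Gy. Between times at 0.1 Gy the block gave 3 throughout and at 2 Gy 2 to 3.

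Depth limits Mog, Sox10 and Mag, with at most 9, 72 and 44 counts per library. Reads shared by Cnp and Dnajc7, and transcripts of 1 gene, were not told apart in the counts.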
